A study of Mus musculus with 6 samples.

Results

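The genes described here encode the enzymes of glycolysis and the pentose phosphate pathway, the carriers of glucose and lactate, the enzymes of glycogen turnover, and the oxygen sensors and targets of the hypoxia response. They were chosen by gene symbol, 37 in all, and sorted by pathway. A probe carried the symbol of 33 of them, against 19057 genes named on the whole array, while Hk2, Gpi1, Eno1 and G6pdx had no probe under these symbols in the tables used here and were not analysed. The study compared total RNA of mouse hybridomas, which are lymphocytes immortalised by fusion to a tumour line, on Illumina bead arrays. There were 2 groups of 3 arrays each, the IL-17-producing hybridoma S2 and the IL-17-non-producing hybridoma DE3. Each group is therefore 1 named line. The labels give no genotype, strain, age, treatment or time, both lines were kept in RPMI medium with fetal calf serum, and the sources used here do not give the glucose, oxygen or cell density of the cultures.

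Glycolysis splits glucose to pyruvate in the cytosol, and the pyruvate is either reduced to lactate and exported or burned in the mitochondrion. The pentose phosphate pathway branches off at glucose 6-phosphate and yields NADPH and ribose, and glycogen stores glucose units that glycogen phosphorylase releases. Hypoxia-inducible factor (HIF) pairs an oxygen-labile subunit, which prolyl hydroxylases of the Egln family mark for destruction through the von Hippel-Lindau protein, with the stable partner Arnt, and it switches on many glycolytic genes. In T cells glycolysis rises on activation, and HIF-1 is known as a factor of the type 17 helper programme.

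The short DNA stretch to which HIF binds has the core letters ACGTG or GCGTG, and the promoters of these genes are shown because glycolysis and hypoxia genes are known targets of the factor. Promoter windows of 300 bases, from 250 before to 50 after the start of the gene, were taken from RefSeq on the GRCm38.p6 build and matched 36 of the 37 genes. Some genes have several start sites, which made 50 windows. Both cores were searched on both strands, and a match may overlap another, as where CACGTG holds ACGTG on each strand. ACGTG stood in 26 of the 50 windows, or 52%, against 25.8% of the 9795 windows of all tested genes and 19.6% of all 32851 windows. GCGTG stood in 64% of the windows of these genes and in 50.6% and 32.4% of the other sets. The median share of G and C was 61.8% in the windows of these genes, 60.7% in those of all tested genes and 52.7% in all windows. A match is a run of letters and was not tested as a binding site. The windows below belong to Pygl, Egln3 and P4ha1, which had the largest decreases among those of the 37 genes that were tested, to Ankrd37, which was higher, and to Ldha, a known HIF target that did not pass the test. Capitals mark the 2 cores on either strand.
Pygl, chr12:70227634-70227933, minus strand: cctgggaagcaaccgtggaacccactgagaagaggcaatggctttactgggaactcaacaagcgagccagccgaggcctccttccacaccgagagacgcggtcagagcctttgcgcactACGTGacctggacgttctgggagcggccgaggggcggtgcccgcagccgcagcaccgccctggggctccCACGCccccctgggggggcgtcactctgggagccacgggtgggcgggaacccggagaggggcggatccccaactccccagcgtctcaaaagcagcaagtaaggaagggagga
Egln3, chr12:54203825-54204124, minus strand: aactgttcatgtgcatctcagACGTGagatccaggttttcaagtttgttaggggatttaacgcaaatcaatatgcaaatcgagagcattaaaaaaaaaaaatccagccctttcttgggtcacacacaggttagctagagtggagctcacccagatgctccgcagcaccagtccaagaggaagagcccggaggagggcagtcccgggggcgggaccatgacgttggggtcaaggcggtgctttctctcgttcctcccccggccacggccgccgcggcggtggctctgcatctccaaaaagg
P4ha1, chr10:59323046-59323345, plus strand: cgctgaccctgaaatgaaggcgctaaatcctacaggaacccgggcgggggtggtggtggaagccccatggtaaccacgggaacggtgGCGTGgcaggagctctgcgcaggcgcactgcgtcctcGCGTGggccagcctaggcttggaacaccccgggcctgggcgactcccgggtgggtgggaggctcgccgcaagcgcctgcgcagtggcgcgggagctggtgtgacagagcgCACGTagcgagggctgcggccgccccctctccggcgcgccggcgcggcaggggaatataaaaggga
Ankrd37, chr8:45999801-46000100, minus strand: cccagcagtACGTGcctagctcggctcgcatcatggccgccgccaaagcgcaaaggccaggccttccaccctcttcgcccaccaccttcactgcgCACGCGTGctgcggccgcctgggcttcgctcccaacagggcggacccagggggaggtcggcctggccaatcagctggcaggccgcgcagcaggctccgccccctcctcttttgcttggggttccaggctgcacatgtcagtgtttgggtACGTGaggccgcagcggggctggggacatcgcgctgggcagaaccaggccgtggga
Ldha, chr7:46845554-46845853, plus strand: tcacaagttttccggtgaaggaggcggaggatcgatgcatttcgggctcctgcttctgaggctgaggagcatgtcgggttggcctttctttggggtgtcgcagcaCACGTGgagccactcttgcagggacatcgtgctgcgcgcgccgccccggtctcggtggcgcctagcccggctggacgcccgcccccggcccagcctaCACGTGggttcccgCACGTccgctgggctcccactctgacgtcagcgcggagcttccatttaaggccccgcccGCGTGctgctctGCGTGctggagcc
The printed window of Ldha held 5 copies of ACGTG and 2 of GCGTG, that of Ankrd37 held 2 of each, and that of Pygl held 1 of each. Ldha has another start site, whose window held no ACGTG and 2 copies of GCGTG. The window with more cores is printed. At least 1 window held ACGTG in 24 of the 36 matched genes, and in 7 of the 10 genes past the test described next. A share by gene was not counted over all genes, and a gene with several windows has more chances of a match.

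Signals were corrected for background, quantile normalized and put on a log2 scale, on which a step of 1 is a 2-fold difference of intensity. A gene was tested if a probe was above background on at least 3 of the 6 arrays, and the brightest of its tested probes, by the mean over all arrays, stood for the gene. Of the 33 genes with a probe, 28 were tested, 26 of them with a probe above background on all 6 arrays. The remaining 5, Slc16a1, Pgd, Bnip3, Higd1a and Ero1a, did not reach 3 arrays and were not tested. All differences are producing minus non-producing, and the test was limma with Benjamini-Hochberg adjustment over all tested probes and a threshold of 0.05. Whether the arrays of a group came from separate cultures is not stated in the labels. The p-values therefore cover only the spread among these 6 samples, which may be technical. Each group lay on neighbouring positions of 1 chip, so that position on the chip cannot be told apart from group. In RNA from whole cultures, fewer cells of a type and less RNA per cell cannot be told apart.

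Mean deposited signal was 505 to 559 on the non-producing arrays and 399 to 482 on the producing arrays, and a share of 36.9% to 39.4% of probes was above background. Of 9 T cell markers, Cd3d, Cd3e, Cd3g, Cd247 and Thy1 were above background on all 6 arrays, Cd2 and Cd5 did not pass the filter of 3 arrays, and Lck and Trac had no probe in the tables used here. Cd3d, Cd3g and Thy1 were lower in the producing hybridoma, with log2 differences of -0.996, -0.67 and -0.47, and their part in the results below was not tested. Cd3e, also bright, was at -0.04 on its brightest probe and at 0.10 on its other one, and neither passed. Cd247 was higher by 0.54 on its brightest probe and at -0.25 and 0.06 on the others, which did not pass. The call was lost without non-producing array 1 (limma adjusted p = 0.0595) and with arrays scaled to the median of all probes (0.166). The B cell markers Cd79b, Ms4a1 and Cd22 did not pass the same filter, nor were the 4 myeloid, 2 erythroid and 4 fibroblast markers with a probe.

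Of the 28 tested genes, 5 were higher and 5 lower in the producing hybridoma and 18 did not pass. Higher were Pfkp and Pfkl, both subunits of phosphofructokinase, Pgam1, Egln2 and Ankrd37. Lower were Pfkm, the muscle subunit of phosphofructokinase, Taldo1, Pygl, Egln3 and P4ha1. The share past the test, 35.7%, lay near that of all tested genes, which was 36.7% of 9395, with 18.1% higher and 18.6% lower. The median difference of the 28 genes was -0.04 on the log2 scale and the median size 0.19, against a median size of 0.21 over all tested genes. Pygl, at 5.42-fold, was the only gene of the 28 past the test with a difference of 2-fold or more. Among all 9395 tested genes 341 did so, a similar share.

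The higher calls depended on how the arrays were scaled. On the deposited signals, before normalization, the groups overlapped in each of the 5 higher genes and in none of the 5 lower ones, with the producing arrays dimmer as a whole. On dimmer arrays a rise of any gene shrinks and a fall widens. The overlap of all genes on this scale was not counted, so these counts are not a trait of the 10 genes. Scaling each array to the median of all probes, most of which read background, moved the median of all tested genes by -0.23 on the log2 scale, and the share of higher genes among all calls fell from 49.4% to 12.5%. Under that scaling 0 of the 28 genes were called higher by limma, also 0 at an unadjusted p of 0.05, and 12 were called lower, the 5 lower genes among them. Of all tested genes the same scaling called 40.3%, with 5.03% higher and 35.2% lower. No call changed sign. With arrays scaled to the median of the tested probes, an alternative chosen after seeing the data, all 10 calls held and Aldoc passed as well. The directions below are therefore relative to the bulk of expressed genes.

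**Figure D1:**
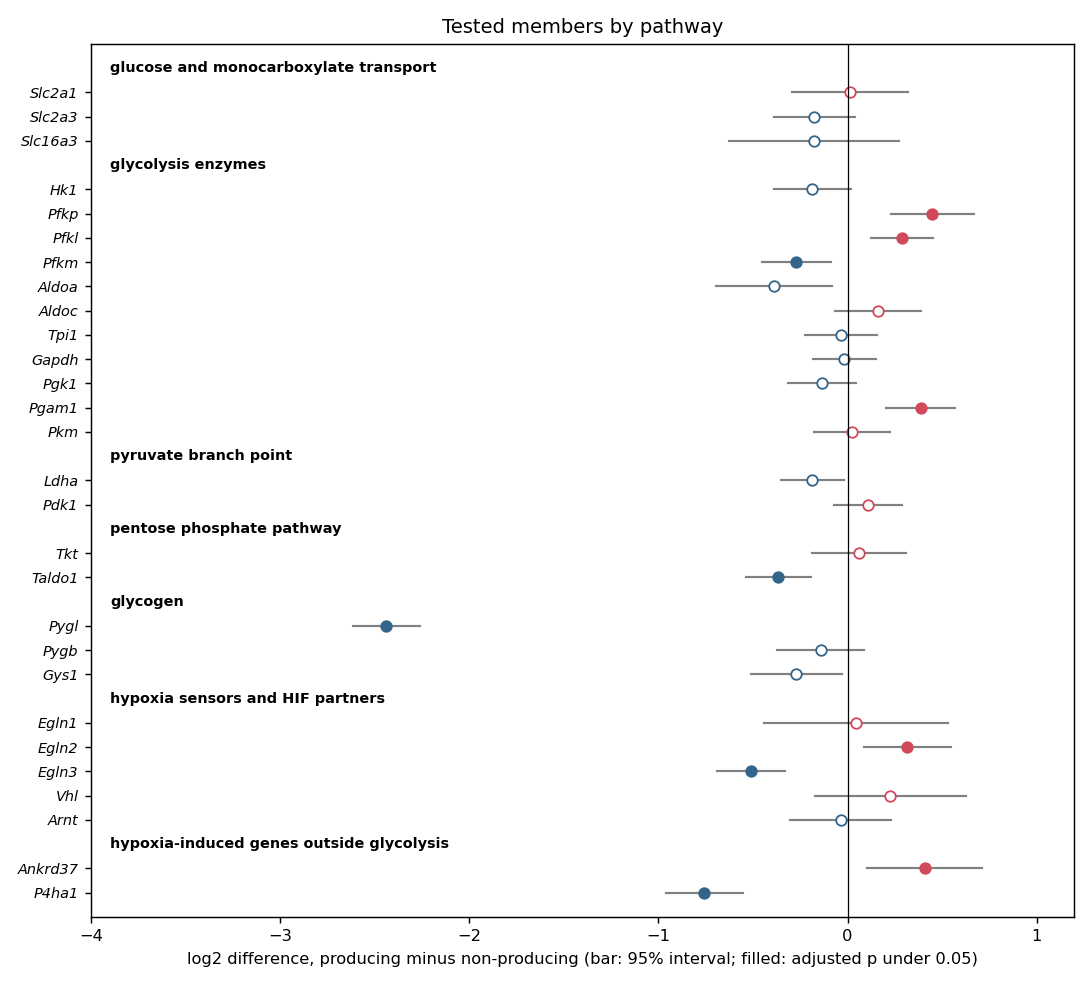
Log2 difference of intensity, producing minus non-producing, of the 28 tested genes on the horizontal axis, grouped by pathway. Points are limma estimates from 3 arrays a group, bars are 95% intervals and filled points passed an adjusted p of 0.05; Pygl lies far to the left at -2.44, and the other genes lie between -0.76 and 0.45.

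Among the carriers, none of the 3 tested genes passed the test, and none had an unadjusted p under 0.05. Slc2a1, the basal glucose transporter GLUT1, read 11.36, 11.09 and 11.06 on the non-producing arrays and 11.25, 11.37 and 10.93 on the producing arrays. These values overlapped, and the difference was 0.01 with a 95% interval of -0.29 to 0.32. Slc2a3, the high-affinity transporter GLUT3, read 10.04, 9.89 and 9.95 against 9.85, 9.88 and 9.62. These did not overlap, and the difference was -0.17, with an interval of -0.39 to 0.04 (limma adjusted p = 0.192). The lactate exporter gene Slc16a3 was near background, with its probe detected on 3 of the 6 arrays, and Slc16a1, the other lactate carrier, was not detected on any.

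Phosphofructokinase, which commits glucose to glycolysis, is a tetramer drawn from 3 subunits named for platelet, liver and muscle, and their genes did not move together. Pfkp read 10.79, 10.81 and 10.82 on the non-producing arrays and 11.44, 11.18 and 11.15 on the producing arrays. The groups did not overlap, and Pfkp rose by 0.45 with a standard error of 0.10 (limma adjusted p = 0.00842). Its second tested probe differed by 0.39 and also passed. Pfkl read 11.05, 11.09 and 11.03 against 11.38, 11.34 and 11.33, a rise of 0.29 with an interval of 0.13 to 0.45 (limma adjusted p = 0.0156). Its dimmer probe pointed the other way, at -0.27, and did not pass, and averaging both probes ended the call. Pfkm read 10.82, 10.70 and 10.65 against 10.46, 10.41 and 10.49. It fell by 0.27 with a standard error of 0.08 (limma adjusted p = 0.0319). Another probe of Pfkm differed by -0.29 and passed, and the dimmest, at -0.10, did not.

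The calls of Pfkl and Pfkm lay near the threshold. Pfkl lost its call without non-producing array 3 (limma adjusted p = 0.0554) or producing array 1 (0.0571). For Pfkm, leaving out any array but non-producing array 3 ended the call (0.0557 to 0.0897), and with each chromosome's median difference removed it was at -0.18 (0.123). The ratio of 2 probes within an array is not moved by a shift of the whole array. The log2 ratio of Pfkp to Pfkm was 0.08 ± 0.11 in the non-producing and 0.80 ± 0.17 in the producing hybridoma (SD, n = 3), and that of Pfkl to Pfkm was 0.33 ± 0.09 against 0.89 ± 0.05 (SD, n = 3). These ratios were chosen after the values of both probes were seen, so they describe the same differences on another scale and are no test. They say nothing of the makeup of the enzyme.

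**Figure D2:**
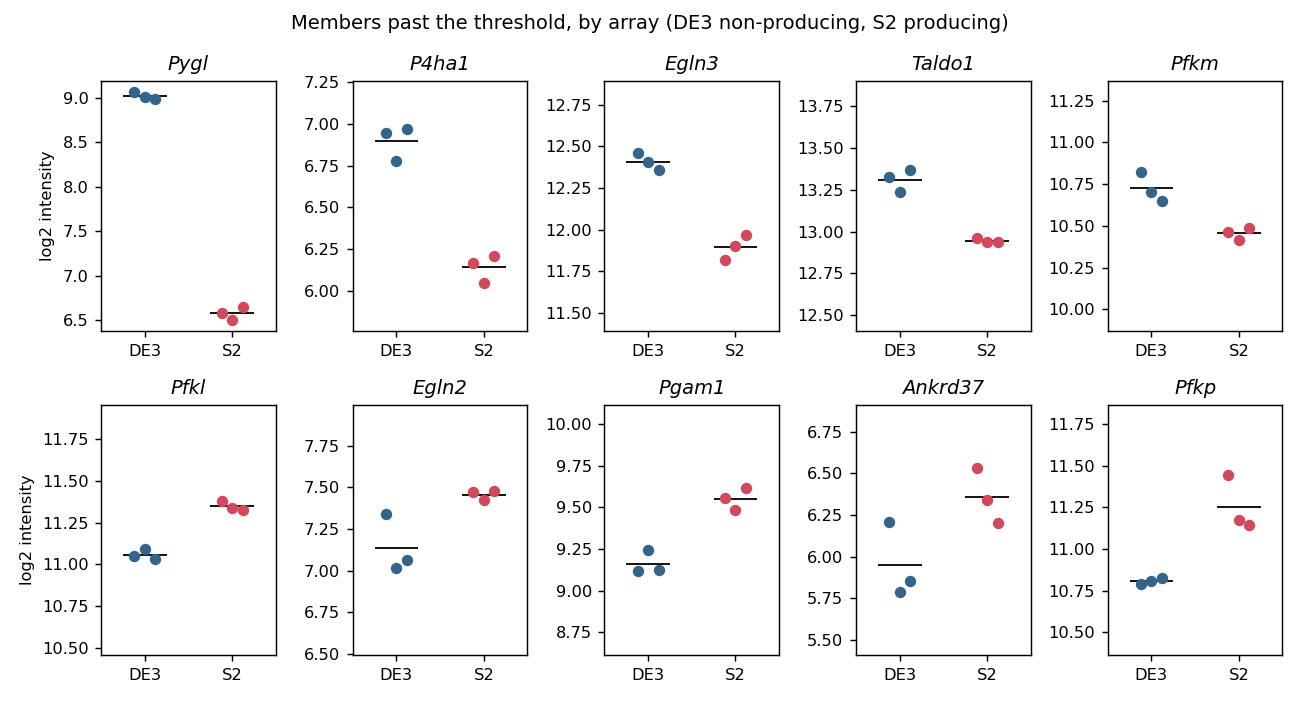
Log2 intensity on each array (points) with the group mean (line) for the 10 genes past the test, DE3 non-producing on the left of each panel and S2 producing on the right. The vertical axes differ between panels, with at least 1.5 log2 units shown in each. The points of the groups overlap in Ankrd37 and are apart in the other 9 genes, all picked by the test. Of all tested genes 51.3% had groups that did not overlap.

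Of the remaining glycolytic enzymes, Pgam1 alone passed the test. Pgam1, the phosphoglycerate mutase of lower glycolysis, read 9.12, 9.25 and 9.12 on the non-producing arrays and 9.55, 9.48 and 9.61 on the producing arrays. It rose by 0.39 with a standard error of 0.08 (limma adjusted p = 0.00718), and its second probe differed by 0.27 and passed. Pgam1 lies on chromosome 19, whose 331 tested genes had a median difference of 0.31. With chromosome medians removed Pgam1 was at 0.08, and its call was lost (limma adjusted p = 0.503).

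Gapdh, Tpi1 and Pkm, which act at other steps of glycolysis, had close values in both hybridomas on their brightest probes. Gapdh, glyceraldehyde 3-phosphate dehydrogenase, read 13.83, 13.80 and 13.82 against 13.83, 13.74 and 13.83, a difference of -0.02 with an interval of -0.18 to 0.15. Tpi1, the triose phosphate isomerase, differed by -0.04 (interval -0.23 to 0.15), and its other 2 probes were at 0.10 and -0.11. Pkm, the last enzyme of glycolysis, differed by 0.02 (interval -0.18 to 0.22) on its brightest probe. The arrays of the groups overlapped in each of these 3 genes. A second, dimmer Pkm probe, designed on a separate transcript record, fell by 0.42 (limma adjusted p = 0.0257). The genome holds many processed copies of Gapdh and of several other glycolytic genes, so which copy a probe reads is uncertain.

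Hk1, Aldoa and Pgk1 pointed down without passing the test. Hk1, the hexokinase that traps glucose in the cell, read 8.50, 8.37 and 8.39 against 8.10, 8.28 and 8.32. These did not overlap, and the difference was -0.19 (limma adjusted p = 0.145), while its dimmer probe, at -0.53, passed narrowly (0.0489). Aldoa, the main aldolase, was at -0.39 with an interval of -0.69 to -0.08 and lay just outside the threshold (limma adjusted p = 0.0532). It passed under 8 of the 16 alternatives, the authors' processed values among them, and stayed lower in all. Pgk1, phosphoglycerate kinase, was at -0.13 (interval -0.31 to 0.05) and Aldoc, the brain-type aldolase, at 0.16 (interval -0.06 to 0.39). With arrays scaled to the median of the tested probes Aldoc was at 0.32 and passed narrowly (limma adjusted p = 0.04997).

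At the branch point of pyruvate, neither gene passed. Ldha, the lactate dehydrogenase subunit that favours lactate formation, read 14.07, 14.03 and 14.02 on the non-producing arrays and 13.87, 13.81 and 13.88 on the producing arrays. The groups did not overlap, as was so for 51.3% of all tested genes, and Ldha was lower by a log2 difference of -0.19, interval -0.35 to -0.02, without passing (limma adjusted p = 0.0806). It passed under 5 of the 16 alternatives. With arrays scaled to the median of the tested probes Ldha was at -0.07 (limma adjusted p = 0.502), and with chromosome medians removed at -0.10 (0.331). Pdk1, the kinase that blocks pyruvate dehydrogenase and is induced by HIF, read 8.79, 8.93 and 8.83 against 9.01, 8.96 and 8.91. Its groups overlapped, with a difference of 0.11 (interval -0.07 to 0.29).

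In the pentose phosphate pathway the 2 tested enzymes belong to the branch that interconverts sugars. Taldo1, transaldolase, read 13.33, 13.24 and 13.37 on the non-producing arrays and 12.96, 12.94 and 12.94 on the producing arrays. The groups did not overlap, and Taldo1 fell by 0.37 with a standard error of 0.07 (limma adjusted p = 0.00684), a call kept under all 16 alternatives. Tkt, transketolase, which shares its substrates, read 12.54, 12.51 and 12.82 against 12.62, 12.62 and 12.81 and differed by 0.06 (interval -0.19 to 0.31). A dim second probe of Tkt, at -0.54, lay just outside the threshold (limma adjusted p = 0.0531). Pgd, of the NADPH-forming branch, was above background on 2 of the 6 arrays and was not tested.

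Glycogen phosphorylase held the largest difference of the set. Pygl, the liver form of the enzyme, read 9.06, 9.01 and 8.98 on the non-producing arrays and 6.58, 6.50 and 6.65 on the producing arrays. The deposited signals were 699, 604 and 582 against 132, 134 and 123, so the gap was visible before any normalization. Pygl was 5.42-fold lower in the producing hybridoma, or -2.44 on the log2 scale with an interval of -2.62 to -2.26 (limma adjusted p = 4.92e-07). Its second probe fell by 1.41 (limma adjusted p = 9.90e-05), so the probes agreed in direction and not in size. By size of difference in either direction, Pygl ranked 31 among the 9395 tested genes, and over the 16 alternatives its difference ran from -2.71 to -1.92 and always passed.

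Pygb, the brain form of the enzyme, did not pass the test. It read 9.16, 9.44 and 9.46 against 9.15, 9.24 and 9.26, a difference of -0.14 with an interval of -0.37 to 0.09. The log2 ratio of the Pygb probe to the Pygl probe was 0.34 ± 0.21 in the non-producing and 2.64 ± 0.09 in the producing hybridoma (SD, n = 3). This ratio too was chosen after the values were seen and is a description. Gys1, the glycogen synthase outside the liver, lay near background at 5.57, 5.34 and 5.39 against 5.24, 4.99 and 5.26. It differed by -0.27 on the probe used (limma adjusted p = 0.0821) and by 0.19 on another, so no direction is given.

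**Figure D3:**
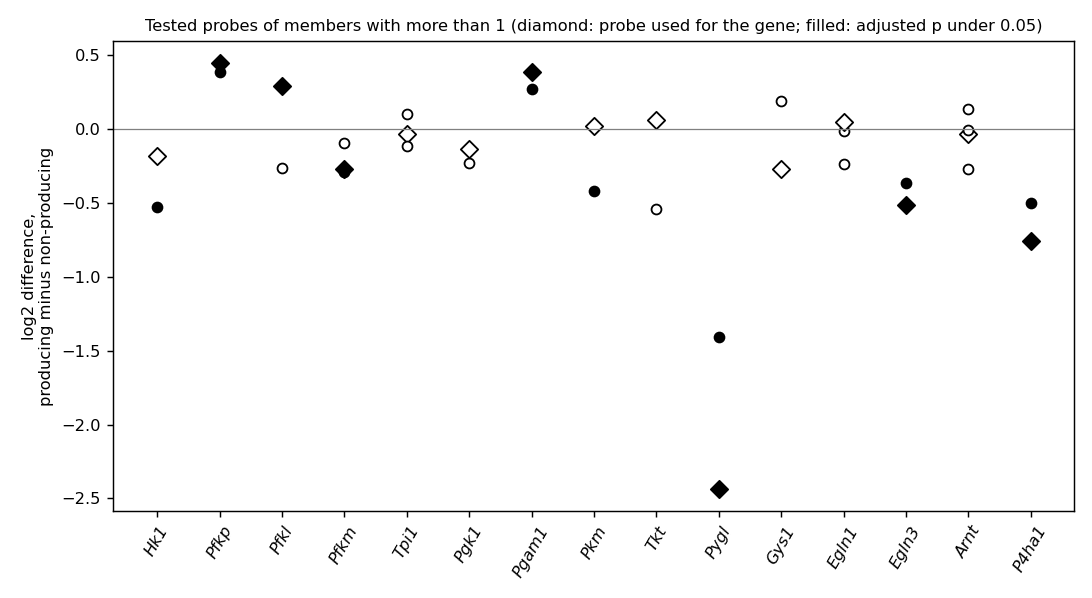
Log2 difference of every tested probe for the 15 genes with more than 1, each column a gene. Diamonds are the probes used for the gene, circles the others, and filled symbols passed an adjusted p of 0.05; both Pygl probes are low, and the Pfkl probes lie on opposite sides of 0.

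Of the oxygen sensors, the prolyl hydroxylases moved in different directions. Egln3, the family member whose own gene is strongly induced by HIF, read 12.46, 12.41 and 12.36 on the non-producing arrays and 11.82, 11.90 and 11.97 on the producing arrays. The groups did not overlap, and Egln3 fell by 0.51 with a standard error of 0.08 (limma adjusted p = 0.00173), a call kept under all 16 alternatives. Its second tested probe fell by 0.37 and passed narrowly (limma adjusted p = 0.0499). Egln2 read 7.34, 7.02 and 7.06 against 7.47, 7.42 and 7.48 and rose by 0.32 with a standard error of 0.10 (limma adjusted p = 0.0402). Non-producing array 1 lay close to the producing arrays, and leaving out any other array ended the call, with limma adjusted p from 0.0735 to 0.127. Egln1, the main oxygen sensor of most cells, was at 0.04, with a wide interval of -0.44 to 0.53 and 5.56 to 6.42 on the non-producing arrays. Its other tested probes were at -0.24 and -0.01 and did not pass.

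Neither partner of the sensors passed. Vhl, the substrate receptor of the ligase that degrades the HIF alpha subunits, was at 0.23 (interval -0.17 to 0.63), and Arnt, the stable HIF subunit, at -0.04 (interval -0.30 to 0.23). Without producing array 1 Vhl was at 0.44 and passed (limma adjusted p = 0.0240). The other 3 tested probes of Arnt were at 0.14, at -0.27 and close to 0, and none passed.

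Of the 5 hypoxia-induced genes outside glycolysis, 2 could be tested, and they went opposite ways. P4ha1, a subunit of the prolyl 4-hydroxylase that modifies collagen in the endoplasmic reticulum, read 6.95, 6.78 and 6.97 on the non-producing arrays and 6.17, 6.05 and 6.21 on the producing arrays. The groups did not overlap, and P4ha1 fell by 0.76 with a standard error of 0.09 (limma adjusted p = 0.000446), or 1.69-fold. Its second probe, above background in the non-producing hybridoma alone, dropped at least 1.14-fold (limma adjusted p = 0.00945). Such a bound sets each array without detection to its lowest detected signal, or to the probe's own value where that is higher. Ankrd37, an ankyrin repeat protein gene induced by HIF, read 6.21, 5.79 and 5.85 against 6.53, 6.34 and 6.20. The lowest producing array lay within the range of the non-producing arrays, and the rise of 0.41 with a standard error of 0.13 passed narrowly (limma adjusted p = 0.0456). Leaving out any array but non-producing array 1 and producing array 3 ended the call (limma adjusted p 0.0882 to 0.141). Bnip3, which marks mitochondria for removal, Higd1a, a mitochondrial inner membrane protein gene, and Ero1a, the oxidase that drives disulfide bond formation, were not above background on any array.

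Other genes of the same pathways, listed by function, showed a similar mixture. Of 99 such genes, 93 had a probe and 64 were tested, of which 14 were higher, 10 lower and 40 did not pass. The share past the test was 37.5%, near the 36.7% of all tested genes (18.1% higher and 18.6% lower). The counts of these lists too depended on the scaling, and their difference from the shares of all genes was not tested. In the glycolysis list 4 of 10 were higher and none lower, also at an unadjusted p of 0.05. With arrays scaled to the median of all probes that list held 1 higher gene, Pfkfb4, and 2 lower ones, Pfkfb2 and Adpgk. The latter are named for this count after their values were seen. Of all tested genes that scaling called 5.03% higher and 35.2% lower. Pfkfb4, which makes the activator of phosphofructokinase fructose 2,6-bisphosphate, read at most 5.29 on the non-producing arrays and 5.90, 5.97 and 6.16 on the producing arrays, a rise of 0.86 (limma adjusted p = 0.000603). Its probe was above background on all 6 arrays but near it, with deposited signals of 78.9, 86.8 and 82.9 against 100.3, 106.5 and 100.8. Eno3, the muscle enolase (0.39), Slc2a8, an intracellular glucose transporter (0.36), and Minpp1, an inositol phosphate phosphatase that can also act on bisphosphoglycerate (0.31), rose less. Each of these 3 lost its call without any 1 of several arrays, with adjusted p up to 0.0765, 0.121 and 0.0906 in limma, and Minpp1, on chromosome 19, also lost it with chromosome medians removed (0.985).

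Of 11 tested genes of pyruvate and lactate handling, 3 were lower and none higher, with 1 higher at an unadjusted p of 0.05. Under the scaling to the median of all probes 4 were lower and 0 higher by limma. Among all tested genes 18.6% were lower and 18.1% higher in the main analysis, and 35.2% and 5.03% under that scaling. Bsg, the chaperone that carries lactate transporters to the membrane, read 5.47, 5.59 and 5.38 in the non-producing hybridoma and was not above background on any producing array, so that it was at least 1.32-fold lower there (limma adjusted p = 0.000354). Pdp1, the phosphatase that activates pyruvate dehydrogenase, fell by 0.52, and its other probe was at 0.05 and did not pass. Pdp1 lies on chromosome 4 and was at -0.79 with chromosome medians removed. Pdk3, a pyruvate dehydrogenase kinase, fell by 0.26, and leaving out any array but non-producing array 1 ended the call (limma adjusted p 0.0644 to 0.107), as did removing chromosome medians (0.124).

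Of 8 tested pentose phosphate genes beyond the enzymes above, 1 passed, beside 36.7% of all tested genes. Under the scaling to the median of all probes 1 was higher and 2 were lower, beside 5.03% and 35.2% of all tested genes. H6pd, which runs the first steps of the pathway inside the endoplasmic reticulum, read 9.66, 9.54 and 9.62 against 10.33, 10.32 and 10.32. It rose by 0.71 with limma adjusted p = 0.000241. H6pd lies on chromosome 4, whose tested genes had a median of 0.27, and with chromosome medians removed it was at 0.44 and still passed (0.00324).

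Of 12 tested glycogen genes, 3 were lower and 1 higher, beside 18.6% and 18.1% of all tested genes. Under the same scaling 6 were lower and 0 higher by limma, beside 35.2% and 5.03% of all tested genes. Phkb, a regulatory subunit of the kinase that activates glycogen phosphorylase, fell by 0.53 (limma adjusted p = 0.0102), Gyg, the primer protein of glycogen, by 0.48 (0.00708), and Ppp1r3b, which targets a phosphatase to glycogen, by 0.29 (0.0448). Leaving out any array but producing array 1 ended the call of Ppp1r3b (0.0623 to 0.127), as did removing chromosome medians (0.0589). Pgm1, which links glycogen to glucose 6-phosphate, rose by 0.38 (0.00457). It also lies on chromosome 4 and was at 0.10 with chromosome medians removed (limma adjusted p = 0.306), and Gyg was at -0.29 there (0.0587).

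The longer list of hypoxia genes held 24 tested genes, of which 8 were higher, 4 lower and 12 did not pass, beside 18.1% higher and 18.6% lower among all tested genes. With arrays scaled to the median of all probes 3 were higher and 7 lower, Hif1a among the lower, beside 5.03% and 35.2% of all tested genes. The difference of these shares from those of all genes was not tested. Vegfa, the vascular growth factor, read 6.22, 6.23 and 6.22 on the producing arrays and was above background on none of the others, so that it was at least 2.32-fold higher in the producing hybridoma (limma adjusted p = 2.62e-05). Vegfa lies on chromosome 17, whose tested genes had a median of 0.30. With chromosome medians removed its fitted difference fell from 1.47 to 1.17 and still passed (limma adjusted p = 0.000103). Its other 2 probes were not above background on any array. P4ha2, the sister subunit of P4ha1, read 6.49, 6.44 and 6.82 against 7.30, 7.42 and 7.38 and rose by 0.78 (limma adjusted p = 0.00120). Its second probe rose by 0.77. The log2 ratio of P4ha2 to P4ha1 was -0.31 ± 0.15 in the non-producing and 1.23 ± 0.13 in the producing hybridoma (SD, n = 3), a description chosen after the values were seen.

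Lower in the same list were Hmox1, the haem oxygenase, and Cited2, which competes with HIF for its coactivator. Hmox1 read 8.85, 9.15 and 9.16 on the non-producing arrays and 7.67, 7.61 and 8.15 on the producing arrays, a difference of -1.24 (limma adjusted p = 0.000642). Cited2 read 10.06, 9.85 and 9.88 against 8.82, 8.88 and 8.65, a difference of -1.15 (limma adjusted p = 8.07e-05), and its other 2 probes were lower and passed. Hif1a, the oxygen-labile HIF subunit, was at -0.26 (limma adjusted p = 0.107), short of the threshold. It is named outside the rule for named genes, after its value was seen.

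**Figure D4:**
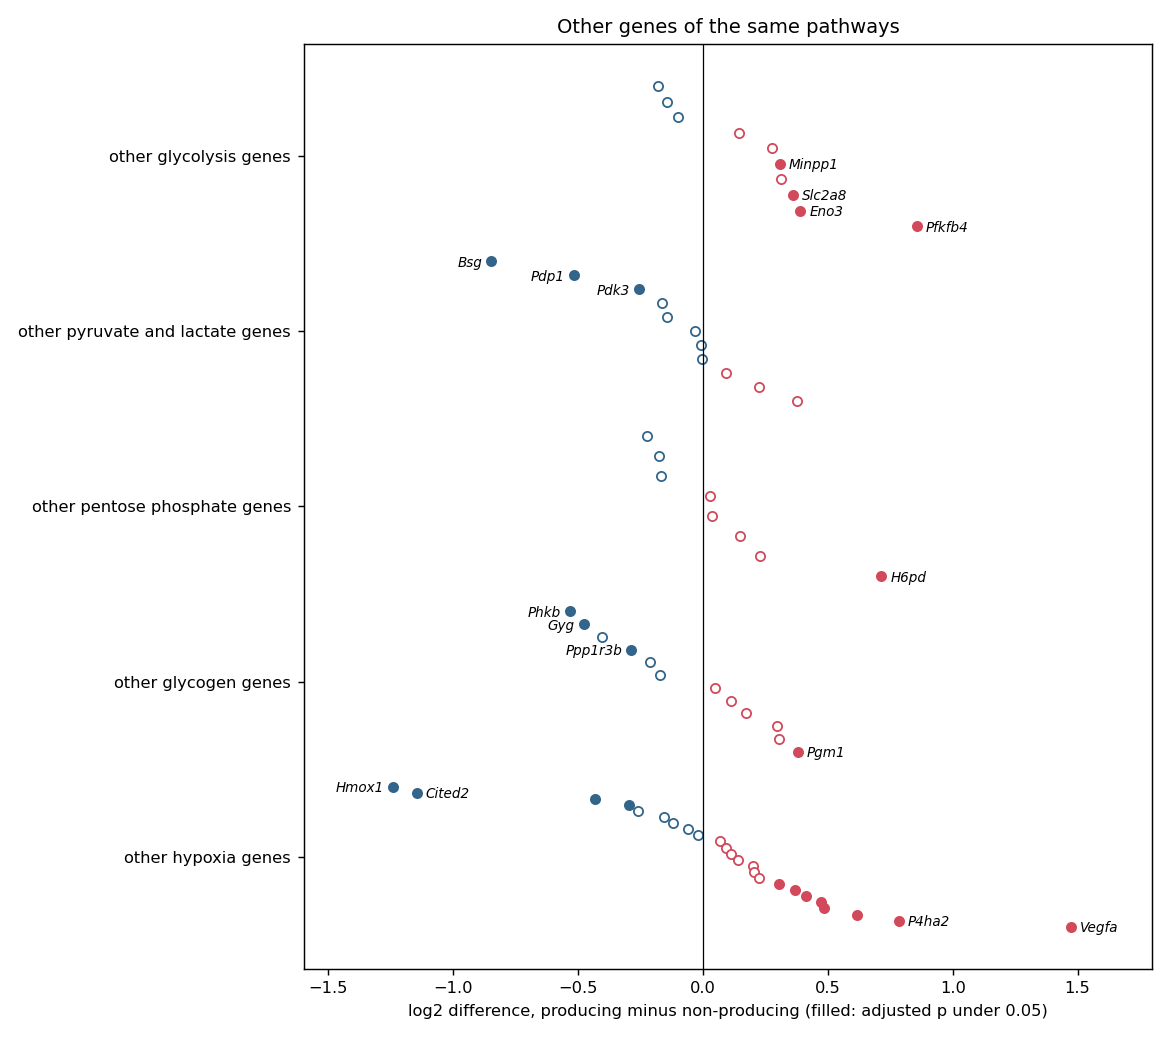
Log2 difference, producing minus non-producing, of the tested genes in 5 lists of other pathway genes, 1 point a gene with filled points past an adjusted p of 0.05. Up to 4 genes a list are labelled; Vegfa and Bsg stand at their fitted values, for which the data give only bounds.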

How the data were processed

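RNA from 3 arrays of each hybridoma was labelled as biotinylated cRNA with an Ambion kit, per the labels' protocols. The deposited table without normalization holds the average bead intensity of 45281 probes on a linear scale and, beside it, a detection score given by the authors as a fraction between 0 and 1. The header calls the score a p-value, but it rises with signal, and 1 minus the score was taken as the detection p-value. The authors' second table holds intensity that shares 1 distribution across arrays, and it served as an alternative.

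Signals were processed with neqc (offset 16, with negative controls that limma infers from detection p-values) in limma 3.58.1 and R 4.3.3. The 17445 probes with a detection p-value under 0.05 on at least 3 arrays were tested, two-sided, without covariates. The limma test was checked on data simulated on the normalized scale, so that check did not cover the normalization or the scaling. The number of arrays limits the precision. Intervals are per gene and not adjusted. Gene names came from the platform annotation, in which 34885 probes had 1 symbol and 18 several, and chromosomes from GRCm38.p6.

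The genes, lists and tests were chosen with earlier results of these data known. Alternatives changed the background correction, the scaling, the probe filter, the probe summary, the chromosome medians, the arrays included and the replicate block. Every member was named or counted. From each list of other genes, at most the 4 largest differences past the threshold were named.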

Additional observations from a re-analysis of the deposited data

How the results depend on the processing

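None of the 10 genes past the test changed sign under any of 16 alternatives. Pygl, P4ha1, Egln3 and Taldo1 passed under each, and Pfkp lost its call only when arrays were scaled to the median of all probes. That scaling left 0 genes higher (5 in the main analysis) and 12 lower (5), with a median of -0.27 (-0.04), and the split of all calls was 12.5% higher against 49.4%. Without a filter on dim probes 3 were higher, Egln2 and Ankrd37 no longer passing. With the mean of all probes of a gene, 9 were lower, Aldoa, Hk1, Ldha and Pkm added, and the median was -0.11. Aldoa and Ldha have 1 probe each, so averaging probes cannot have changed their own values. Calls among all genes under these last settings are not given here, so whether the changes are particular to this set was not tested. Pfkm and Pgam1 lost their calls with chromosome medians removed. The cause was not tested.

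Leaving out each array gave 2 to 5 genes higher, 4 to 5 lower, a median of -0.093 to -0.030 and 2645 to 2979 calls among all genes, against 3448. There were 3 higher genes without non-producing array 2, producing array 1 (where Vhl was gained) or producing array 2, and 2 without non-producing array 3. Arrays with the same number did not deviate together (r = -0.04, -0.16 and 0.09), and not every array correlated best with its own number. With the replicate number as a block, 4 genes were higher and 4 lower, Egln2 and Pfkm no longer passing, and 3019 of all genes passed. Genes near background, such as Gys1 and Slc16a3, are limited by their signal.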

Other observations

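Plod2, the collagen lysyl hydroxylase, showed probes that disagreed. Its brightest probe was at 0.14 and did not pass, while its other 2 probes, above background in the non-producing hybridoma alone, were at least 1.19-fold and 1.39-fold lower in the producing one (limma adjusted p = 0.000250 and 0.000522). Rbx1, the ring protein of the ligase that holds Vhl, was at -0.30 on its brightest probe and at 0.87 on its other one, and both passed (limma adjusted p = 0.0155 and 8.10e-05). The call of the brightest probe was lost with chromosome medians removed (-0.21, limma adjusted p = 0.0641). It was also lost with arrays scaled to the median of the tested probes (0.0512) and without producing array 1 (0.0529). Hif1an, the asparagine hydroxylase that inhibits HIF, rose by 0.41 and Car9, a carbonic anhydrase induced by HIF, by 0.47. They lie on chromosomes 19 and 4, and with chromosome medians removed they were at 0.10 and 0.20 and did not pass (limma adjusted p = 0.458 and 0.103). These genes were named after their values were seen.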
